A study of Mus musculus with 14 samples.

Results

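Epha7 and 9 related genes were followed through mouse bone marrow progenitors and the leukemic cultures grown from them. The 10 genes were a named list of Eph receptors and ephrins, namely the receptors Epha7, Epha2, Epha4, Ephb2, Ephb4 and Ephb6 and the ligands Efna1, Efna4, Efnb1 and Efnb2, and they are 10 of the 52550 genes of the count table. Epha7 was selected on its measured difference in expression between cultures made with 2 retroviral vectors, and how the other 9 were picked is not recorded beyond the fact that results of these data were known. The vector difference is therefore given as a description for all 10 genes, without a test, and so is every difference of Epha7 that involves these cultures.

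The 14 samples were total RNA, sequenced after removal of ribosomal RNA. Hematopoietic stem and progenitor cells (HSPCs) were enriched from the femurs and tibiae of C57BL/6 mice aged 8 to 20 weeks, from wild-type mice (WT, 4 samples) or from mice in which the microRNA gene Mir139 was deleted by paired CRISPR nicking (Mir139KO, 4 samples). The 6 MLL-AF9 samples were WT HSPCs that had been kept overnight in medium with hematopoietic cytokines (SCF, GM-CSF, IL-3 and IL-6) and then transduced with a retrovirus carrying MLL-AF9, a leukemic fusion of the histone methyltransferase MLL to AF9. Of these, 3 carried pMSCV-MLL-AF9-neo and were selected with neomycin at 800 µg/mL (neo, replicates 1 to 3), and 3 carried pMSCV-MLL-AF9-puro and were selected with puromycin (puro, replicates 4 to 6). All 6 had been replated in methylcellulose before lysis. No sample was labeled as HSPCs cultured and selected without MLL-AF9, so that culture, selection and the fusion cannot be told apart. The labels leave unsaid whether each HSPC sample was lysed at once or expanded first, and whether cultures with the same vector came from separate transductions, so p-values measure the spread between these samples, which may be technical.

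Eph receptors are the largest family of receptor tyrosine kinases, and their ligands, the ephrins, are themselves held in the membrane of the neighboring cell, by a lipid anchor in ephrin-A proteins and by a transmembrane segment with a signaling tail in ephrin-B proteins. Contact between cells signals in both directions and moves the cytoskeleton through small GTPases, which makes cells repel, adhere or sort. In bone marrow the family is known for work at the contact between progenitors and stroma or endothelium, and in the thymus for the handling of T cells.

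The listed genes lie on 6 autosomes and the X chromosome (build GRCm38, GENCODE M21). Epha7 (ENSMUSG00000028289) spans chr4:28813131-28967499 on the plus strand. The same chromosome carries Epha2 at chr4:141301240-141329384 (plus) and Ephb2 at chr4:136647539-136835988 (minus). The other receptors are Epha4 at chr1:77367185-77515088 (minus), Ephb4 at chr5:137350109-137378669 (plus) and Ephb6 at chr6:41605482-41620509 (plus). Among the ligands, Efna1 at chr3:89271733-89281142 and Efna4 at chr3:89333390-89338028 sit in a cluster on the minus strand with Efna3 between them, at chr3:89313899-89322965. Efnb1 is at chrX:99136130-99148991 (plus) and Efnb2 at chr8:8617434-8661242 (minus). The exons of Efna4 share 168 bases with 4731419I09Rik on the opposite strand and those of Ephb4 share 33 bases with Zan. The strand setting of the counting is not given in the sources used here, so those reads cannot be assigned with certainty.

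The promoters of Epha7 and Ephb6 are shown because these genes had the largest differences in the list, in opposite directions. Each sequence runs 5′ to 3′ on the strand of the gene, from 250 bases before to 50 bases after an annotated RefSeq start (GRCm38.p6), at chr4:28812881-28813180 for Epha7 and chr6:41605261-41605560 for Ephb6, and CpG dinucleotides are in capitals.
Epha7: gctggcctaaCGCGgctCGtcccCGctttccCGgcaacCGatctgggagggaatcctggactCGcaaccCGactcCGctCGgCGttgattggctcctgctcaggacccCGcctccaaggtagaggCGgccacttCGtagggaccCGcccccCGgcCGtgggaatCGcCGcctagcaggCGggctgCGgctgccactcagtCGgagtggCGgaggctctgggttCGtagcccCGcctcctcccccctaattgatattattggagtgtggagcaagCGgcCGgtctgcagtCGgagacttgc
Ephb6: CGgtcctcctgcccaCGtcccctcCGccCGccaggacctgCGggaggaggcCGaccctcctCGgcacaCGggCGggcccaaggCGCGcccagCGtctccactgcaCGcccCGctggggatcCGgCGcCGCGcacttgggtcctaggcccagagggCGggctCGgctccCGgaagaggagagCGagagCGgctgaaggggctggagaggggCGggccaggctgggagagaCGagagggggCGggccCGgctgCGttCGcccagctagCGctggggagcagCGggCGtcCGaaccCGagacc
Both windows are rich in CpG. That of Epha7 holds 28 CpG at a GC content of 67.0% and that of Ephb6 holds 34 at 76.3%, whereas the median over all promoters of this length was 7 CpG. Of the 22 Eph and ephrin genes, 21 had a promoter entry, the exception being Efnb3. All 21 windows lay above that median, from 10 CpG in Epha2 to 56 in Epha8, so the richness is not particular to the 2 shown. Both strands were searched for 4 short motifs chosen after the expression values were seen, namely TGACAG (a MEIS core, in 19.2% of all 32851 promoters), TGATTTAT (HOX-PBX, 0.977%), TGTGGT (RUNX, 16.8%) and GAGGAAGT (PU.1, 3.2%). Among the listed genes only Efnb2, with 2 TGACAG matches, and Efna4, with 1 TGTGGT match, held any of these letters in this window.

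Because one genotype lacked Mir139, the list was also searched for sites of its mature products. Both come from chromosome 7, miR-139-5p from chr7:101475382-101475403 and miR-139-3p from chr7:101475418-101475439 on the plus strand of GRCm38.p6 (RefSeq). They are printed 5′ to 3′ with the seed, bases 2 to 8, in capitals.
miR-139-5p: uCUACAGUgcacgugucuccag
miR-139-3p: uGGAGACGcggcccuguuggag
The longest annotated 3′ untranslated region held no match to either seed in any of the 10 listed genes. For comparison, 13.5% of 12706 genes tested between the HSPC genotypes held a match for miR-139-5p and 4.48% for miR-139-3p. In the rest of the family, Epha5 held 1 match for miR-139-5p at position 3948 of 4281 and Epha6 held 1 for miR-139-3p at position 106 of 537, shown here with the match in capitals.
Epha5: atatttagactACTGTAGttttcaattaa
Epha6: tcaccacccacCGTCTCCtgttccgacta

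Total counts were 35016668 to 45877994 per library, and 3 counts corresponded to 0.055 to 0.127 CPM, the count scaled to library size with factors from the trimmed mean of M-values (TMM). Values below that are hardly above nothing. Mir139 itself was listed at 0 counts in all 14 libraries, so the deletion could not be checked. A single noncoding gene, Gm26917, took 17.0 to 35.4% of counts in HSPC libraries, under 25% in WT replicates 1 and 2 and Mir139KO replicates 2 and 3 and over 25% in the other 4, against 7.55 to 10.4% in MLL-AF9 libraries. MLL-AF9 puro replicates 4 and 6 were the most alike of the pairs compared, those within WT, Mir139KO or MLL-AF9 (r = 0.995 across genes). Their median chi-square per gene was 1.128, the lowest of these pairs, and their mean was 9.002, both above what counting noise alone gives. They were kept as 2 samples, with their sum as an alternative. Puro replicate 5 was closer to neo replicates 2 and 3 (r = 0.959 and 0.956) than to puro replicates 4 and 6 (r = 0.936 and 0.937). The labels were checked with marker genes. Summed Hoxa9, Hoxa10 and Meis1, known targets of MLL fusions, reached 18.3 to 38.3 CPM in HSPCs, 313 to 478 CPM in neo and 659 to 1176 CPM in puro cultures. Summed markers of blood lineages and stroma were higher in every HSPC library than in any culture. Those of endothelium overlapped, at 100.2 to 130.2 CPM in HSPCs and up to 109 CPM in puro cultures. Of 5 stroma markers, which summed to 190 to 1625 CPM in HSPCs and 0.953 to 9.05 CPM in cultures, 4 were under 1 CPM in all neo and 3 in all puro cultures, with Kitl at 0 in neo. The 7 T cell markers summed to 44.1 to 114 against at most 5.06 CPM, 6 erythroid markers to 563 to 1250 against at most 4.71 CPM, 4 megakaryocyte markers to 128 to 722 against at most 35.1 CPM, and 5 B cell markers to 30.4 to 80.3 against at most 6.29 CPM. Monocyte and macrophage markers summed to 290 to 659 against at most 169 CPM, and neutrophil markers to 3740 to 15510 against at most 1981 CPM. Of these, Csf1r, Ly86, C1qa and Mpo were lower in every culture, while Mrc1, Elane, Ltf and Camp overlapped. Adgre1 stood at 13.8 to 42.2 CPM in HSPCs and 39.3 to 100 CPM in cultures. S100a8 in neo cultures (440 to 897 CPM) lay inside the WT range (112 to 1522 CPM). The stroma marker Lepr reached 7.65 CPM in puro cultures, against 3.18 to 6.53 CPM in HSPCs. Among progenitor markers, Kit was at 142 to 265 CPM in HSPCs and 42.2 to 118 CPM in cultures, Myb at 68.9 to 225 and 80.8 to 205 CPM, Gata2 at 85.2 to 228 and 0.495 to 9.80 CPM, Cd34 at 32.1 to 50.3 and at most 1.66 CPM, and Flt3 at 36.0 to 66.4 and at most 5.62 CPM.

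Epha7, a receptor for ephrin-A ligands known mainly from axon guidance, was a low transcript everywhere except in puro cultures. In WT HSPCs it stood at 1.43, 3.10, 1.19 and 1.65 CPM in replicates 1 to 4, and in Mir139KO HSPCs at 0.677, 2.28, 1.83 and 1.07 CPM. The neo cultures gave 0.989, 1.66 and 2.40 CPM, and the puro cultures 98.6, 138.7 and 97.8 CPM. The neo values lay inside the range of the HSPC values, and all 3 puro values were far above every other library. In reads, puro cultures held 4935, 6938 and 5149 counts of Epha7, and no other library held more than 133. Ordered by mean, the groups were puro (111.7 ± 23.4 CPM, SD, n = 3), WT (1.84 ± 0.858, SD, n = 4), neo (1.68 ± 0.706, SD, n = 3) and Mir139KO (1.46 ± 0.726, SD, n = 4). The last 3 overlap and differ by less than their spread. The log2 difference of puro over neo was 6.04 (SE 0.41), and it ranged from 5.79 to 6.38 over the other settings tried. Between 1474 and 1683 genes lay above Epha7 in a puro library, 9.47 to 10.3% of the genes with at least 10 counts, against 66.4 to 91.9% in the other libraries.

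**Figure D1:**
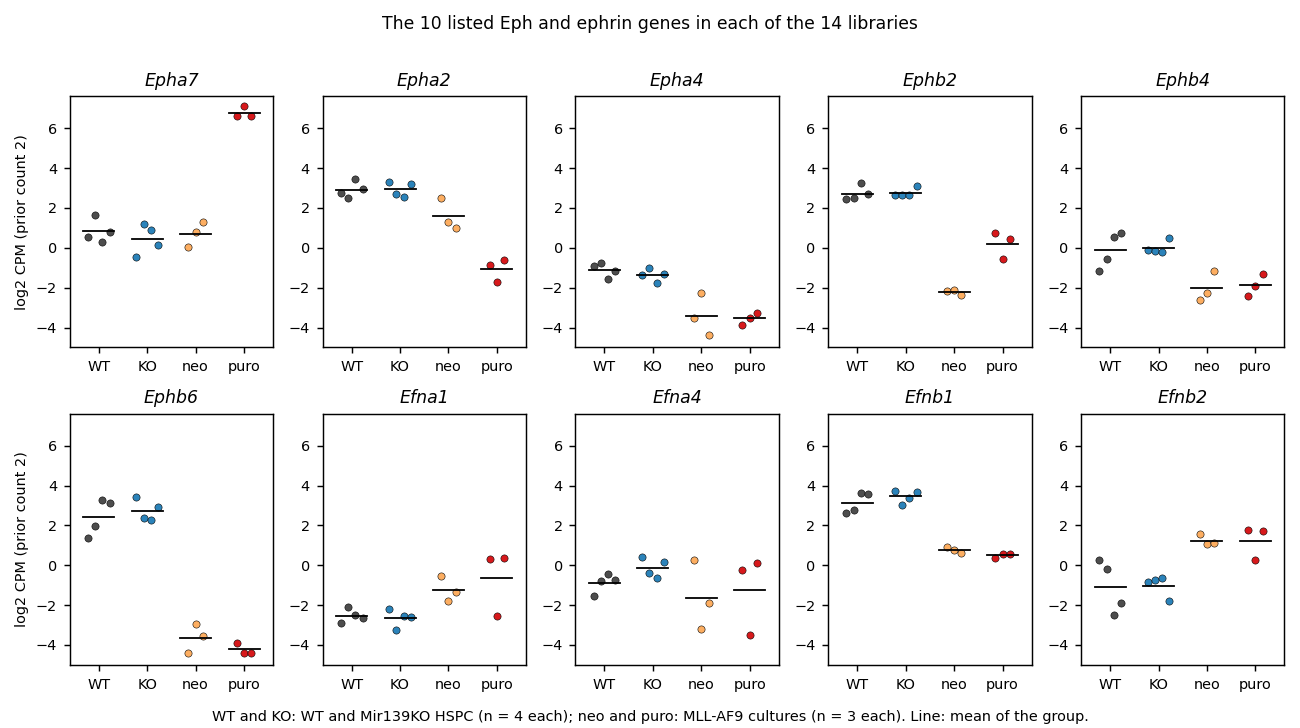
Level of each of the 10 listed genes in the 14 libraries, as log2 of the TMM-scaled CPM with a prior count of 2, with points for single libraries and lines for the mean of the 4 HSPC or 3 culture libraries of a group. Epha7 is high in the 3 puro cultures (97.8 to 138.7 CPM) and at most 3.10 CPM elsewhere, and Ephb6 is at the bottom of its panel in every culture (at most 0.0792 CPM).

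A comparison that pools both vectors hides this split. All MLL-AF9 cultures against WT HSPCs gave a log2 difference of 4.91 (SE 1.43) for Epha7, the neo cultures alone gave -0.12 (SE 0.50) and the puro cultures alone 5.92 (SE 0.45). Against Mir139KO HSPCs the values were 5.22 (SE 1.46) for both vectors, 0.19 for neo and 6.23 for puro. Other genes differed along the same line. Meis1 stood at 127 to 246 CPM in neo and 445 to 917 CPM in puro cultures, and the endothelial marker sum at 14.6 to 21.3 against 69.0 to 109 CPM. In the latter, Pecam1, which hematopoietic cells also express, made up 13.8 to 20.3 and 68.8 to 107 CPM, while Cdh5 was at most 0.0799 CPM in any culture. The part of these differences in the Epha7 level was not tested. Because each vector went with its own drug, the vector, the drug and the cultures cannot be told apart.

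Scaled to exon length, so that genes can be compared, Epha7 was a minor receptor in HSPCs and neo cultures and the leading one in puro cultures. On the scale of CPM per kilobase (kb), the 14 Eph receptors summed to 6.26 ± 1.28 in the WT and 6.38 ± 1.29 in the Mir139KO HSPC group (SD, n = 4 each), to 4.46 ± 2.36 in neo cultures (SD, n = 3) and 16.5 ± 0.348 in puro cultures (SD, n = 3). Without Epha7 the sum of the other 13 was 6.07, 6.23, 4.28 and 5.20 in the same order. Epha7 accounted for 3.23% of the receptor sum in WT HSPCs, 2.55% in Mir139KO HSPCs and 4.93% in neo cultures. In puro cultures it accounted for 68.7 ± 16.0% (SD, n = 3), from 59.3 to 87.2%. In HSPCs the sum was spread over several receptors, with Epha1 at 28.0 and 26.7%, Epha2 at 26.3 and 25.9% and Ephb6 at 25.2 and 28.3% in WT and Mir139KO. In neo cultures Epha1 held 66.7% and Epha2 16.8%. The 8 ephrins summed to 3.82 ± 0.927 and 4.53 ± 0.984 CPM per kb in WT and Mir139KO HSPCs (SD, n = 4 each) and to 2.03 ± 0.815 and 2.26 ± 0.791 in neo and puro cultures (SD, n = 3 each). Efnb1 held 68.8 and 71.6% of the ephrin sum in the HSPC groups but 26.0 and 19.8% in the cultures, where Efnb2 held 17.8 and 15.9%, against 2.72 and 1.62% in the HSPC groups. Efnb3 held 20.3 and 21.2% in neo and puro cultures, against 9.36 and 5.97% in WT and Mir139KO HSPCs. Efna1 held 10.7 and 18.1%, against 1.895 and 1.37%. These shares are descriptions without a test.

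**Figure D2:**
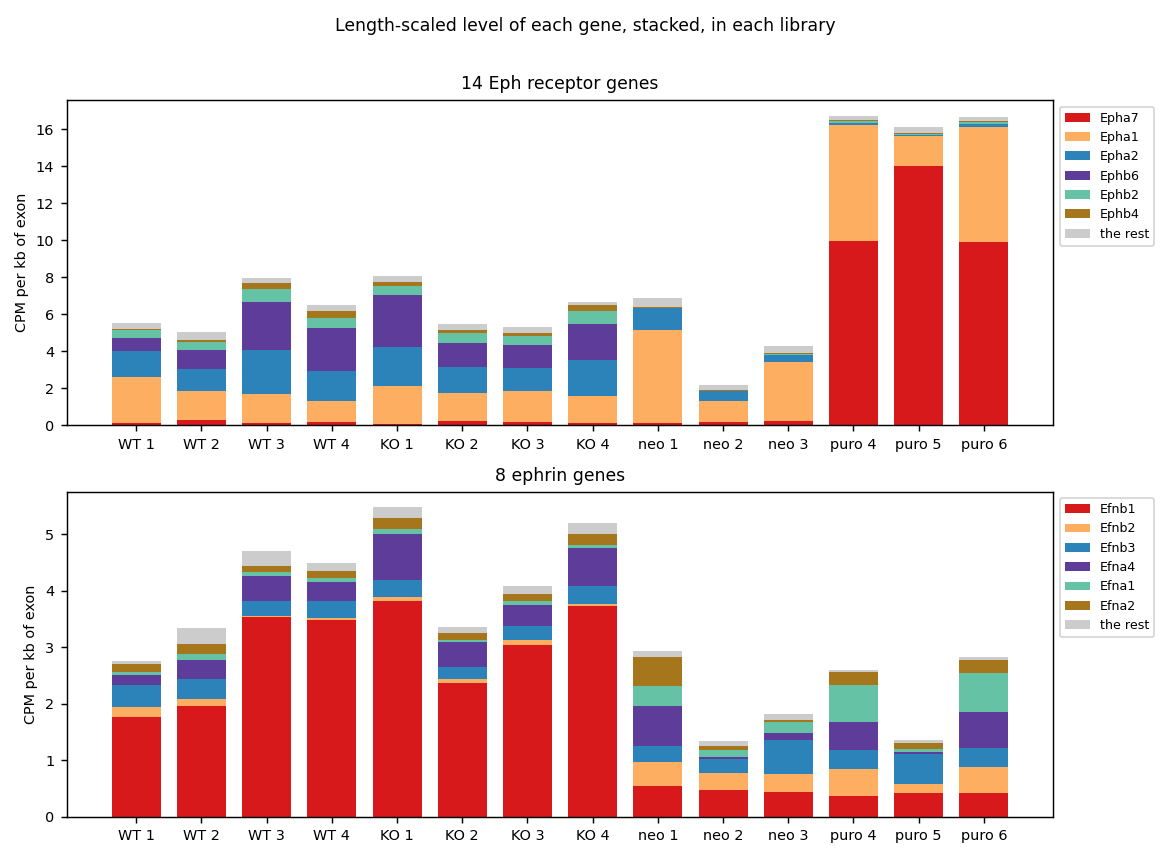
Summed level of the 14 Eph receptors and of the 8 ephrins in each of the 14 libraries, in CPM per kb of exon, stacked by gene. Epha7 fills most of the receptor bar of every puro culture (59.3 to 87.2%), and Efnb1 most of the ephrin bar of the HSPC libraries (means of 68.8% in WT and 71.6% in Mir139KO).

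MLL-AF9 cultures were next compared with each HSPC genotype, which asks how the family differs between transformed cells and the progenitor preparations. Both comparisons use the same 6 MLL-AF9 samples and are not independent. In edgeR's quasi-likelihood test over 17077 genes, with Benjamini-Hochberg adjustment, 32.8% of all genes were called higher and 29.4% lower than in WT HSPCs. Among the 15191 genes that reached 10 counts in at least 1 library of each group, the shares were 28.7 and 29.5%. Of the 9 listed genes other than Epha7, 8 passed the count filter. Ephb6 did so through the HSPC libraries alone and Efna1 through the cultures alone, and both are described without a test. Of the other 6, Epha2, Ephb2, Ephb4 and Efnb1 fell, Efnb2 rose and Efna4 was not called. How the listed genes were picked is not recorded, and results of these data were known. Their calls and p-values in these comparisons, here and below, may therefore owe something to that choice. Against Mir139KO HSPCs, where 37.3% of 16953 genes were called higher and 31.9% lower, or 32.5 and 33.1% of the 14718 reaching that count in each group, the same 4 genes fell and the same 1 rose. The summed markers of stroma, T, B, erythroid and megakaryocytic cells, given above, also were lower in every culture than in any HSPC library, and their part in the falls of Epha2, Ephb2, Ephb4 and Efnb1 was not tested. With scaling by total counts only, the median of all genes moved up by 0.57 and 0.70 on the log2 scale, and the share of higher genes among all called went from 52.7 to 68.3% and from 53.9 to 71.4%. In bulk RNA, fewer cells of a type and less RNA per cell cannot be told apart.

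Among the A receptors, Epha2 fell. This receptor binds ephrin-A1 and is best known from epithelia. It stood at 6.69, 5.63, 11.02 and 7.75 CPM in WT HSPCs and at 9.89, 6.38, 5.72 and 9.11 CPM in Mir139KO HSPCs. Neo cultures gave 5.58, 2.42 and 1.92 CPM and puro cultures 0.500, 0.260 and 0.608 CPM. On this TMM scale no culture reached the lowest HSPC library, although neo replicate 1 came close to it, and puro cultures lay below neo cultures without overlap. With total counts only, neo replicate 1 stood at 7.622 CPM, above the highest HSPC library (WT replicate 1, 7.295 CPM). The log2 difference was -2.05 (SE 0.71, adjusted p = 0.0236) against WT and -2.08 (SE 0.69, adjusted p = 0.0172) against Mir139KO HSPCs. The WT call depended on the setting. It was lost with total counts only (-1.38, adjusted p = 0.124), without WT replicate 3 (adjusted p = 0.0569), with neo cultures alone (-1.21, adjusted p = 0.0625), with HSPC libraries under 25% Gm26917 (-1.76, adjusted p = 0.158) and with a correction for GC content (-1.33, adjusted p = 0.113), while puro cultures alone gave -4.07 (adjusted p = 0.000403). Against Mir139KO the call was lost with total counts, the under 25% libraries and the GC correction (adjusted p from 0.128 to 0.148).

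Epha4, a receptor that binds ligands of both classes, was near the floor. It had 23, 23, 9 and 11 counts in WT HSPCs, 8, 16, 10 and 9 in Mir139KO HSPCs and 0 to 8 in the cultures. All HSPC libraries lay above all cultures on the CPM scale (0.245 to 0.536 against at most 0.158), but the gene did not pass the filter of these comparisons and was not tested.

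The listed B receptors were all lower in cultures. Ephb6, whose kinase domain is inactive and which is known from T cells, was present in every HSPC library, at 2.58, 3.82, 9.73 and 8.78 CPM in WT and 10.7, 5.04, 4.77 and 7.45 CPM in Mir139KO. In the cultures it had 7 counts in all, with 0, 0.0792 and 0.0367 CPM in neo and 0.0200, 0 and 0 CPM in puro replicates. Every culture was at or near nothing, and the groups lay far apart. Set against 821 counts in WT HSPCs, the ratio of the levels was 245 (95% exact Poisson interval 118 to 611), and against 814 counts in Mir139KO HSPCs it was 288 (139 to 718), where the intervals cover counting error only. The fitted log2 differences were -7.97 (SE 0.81) and -8.14 (SE 0.72). Ephb6 passed the filter only through the HSPC libraries, where it is high, and had to differ, so no p is given. T cell markers moved the same way, from 44.1 to 114 CPM in HSPCs to 2.55 to 5.06 CPM in cultures, with 5 of 7 under 1 CPM in all neo and 6 of 7 in all puro cultures and Cd3e at 0 in neo cultures, and their part in the low level of Ephb6 was not tested.

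Ephb2, a receptor for ephrin-B ligands, stood at 5.37, 5.56, 9.34 and 6.54 CPM in WT HSPCs and at 6.26, 6.21, 6.16 and 8.60 CPM in Mir139KO HSPCs. Neo cultures gave 0.175, 0.178 and 0.147 CPM, and puro cultures 1.62, 0.640 and 1.31 CPM. The 3 sets did not overlap, with HSPCs highest and neo lowest. The fall was -3.32 on the log2 scale (SE 0.68, edgeR adjusted p = 0.0013) against WT and -3.35 (SE 0.66, adjusted p = 0.000692) against Mir139KO, and it was called in 21 of 21 alternative settings. The neo cultures alone fell by 5.30 and the puro cultures alone by 2.48 against WT.

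Ephb4, the receptor for ephrin-B2 known from veins, was low throughout. It stood at 0.399, 0.629, 1.42 and 1.62 CPM in WT and 0.888, 0.855, 0.807 and 1.38 CPM in Mir139KO HSPCs, and between 0.116 and 0.403 CPM in the 6 cultures. WT replicate 1 lay just under the highest culture, neo replicate 3 at 0.403 CPM, so the groups overlapped for WT and not for Mir139KO. The log2 differences were -2.12 (SE 0.52, edgeR adjusted p = 0.00362) and -2.09 (SE 0.43, adjusted p = 0.000899). With HSPC libraries under 25% Gm26917 the WT value was -1.18 (adjusted p = 0.119). Of 6 endothelial markers, all but Pecam1 were at most 1.64 CPM in every culture. In HSPCs, Tie1 was at 9.74 to 29.1 CPM, while Emcn, Cdh5, Tek and Kdr were low there too, at 0.245 to 3.20 CPM. Their part in the Ephb4 level was not tested.

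The ligands split by gene. Efnb1, an ephrin-B ligand, fell from 6.09, 6.75, 12.2 and 12.0 CPM in WT and 13.2, 8.15, 10.5 and 12.9 CPM in Mir139KO HSPCs to 1.26 to 1.86 CPM in the 6 cultures, which were close to one another and far below every HSPC library. The log2 differences were -2.62 (SE 0.33, edgeR adjusted p = 5.01e-05) and -2.90 (SE 0.27, adjusted p = 2.91e-06), called in 21 of 21 alternative settings. Efnb2, the ligand known from arteries, went the other way. It stood at 1.18, 0.815, 0.132 and 0.220 CPM in WT and 0.507, 0.541, 0.587 and 0.237 CPM in Mir139KO HSPCs. The neo cultures gave 2.89, 2.02 and 2.14 CPM and the puro cultures 3.34, 1.14 and 3.23 CPM. Puro replicate 5, the lowest culture, lay just under WT replicate 1 and above all Mir139KO libraries. Its rise was 2.03 (SE 0.60, edgeR adjusted p = 0.0109) against WT, lost with HSPC libraries under 25% Gm26917 (1.26, adjusted p = 0.0814), and 2.35 (SE 0.43, adjusted p = 0.000423) against Mir139KO.

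Efna1, a ligand of Epha2, was at 2 to 8 counts in every HSPC library, 0.0570 to 0.186 CPM, and passed the filter only through the cultures, so it is described without a p. Neo cultures gave 0.640, 0.238 and 0.348 CPM and puro cultures 1.20, 0.120 and 1.25 CPM. Puro replicate 5 lay within the HSPC range and the other 5 cultures above it. The fitted log2 differences were 2.27 (SE 0.71) against WT and 2.41 (SE 0.73) against Mir139KO.

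Efna4, another ephrin-A ligand, did not pass the test. It stood at 0.294, 0.536, 0.693 and 0.551 CPM in WT and 1.31, 0.712, 0.587 and 1.07 CPM in Mir139KO HSPCs. The cultures spread more widely, at 1.14, 0.0594 and 0.220 CPM in neo and 0.799, 0.0400 and 1.03 CPM in puro replicates, with values both above and below the WT range in each vector. The log2 differences were 0.09 (SE 0.80, edgeR adjusted p = 0.932) against WT and -0.76 (SE 0.77, adjusted p = 0.394) against Mir139KO.

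**Figure D3:**
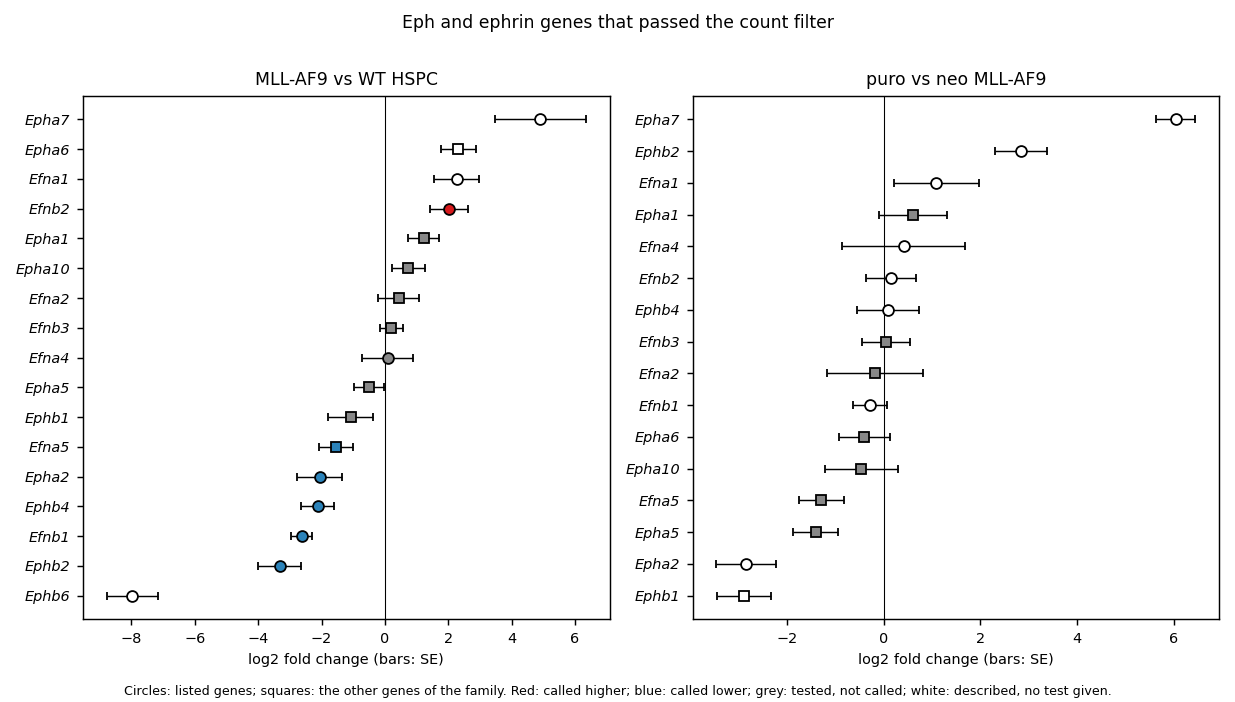
Log2 fold changes of the Eph and ephrin genes that passed the count filter, for MLL-AF9 cultures against WT HSPCs (left) and puro against neo cultures (right), with bars of 1 SE. Circles are listed genes, squares the other genes of the family, red and blue called genes, grey tested genes that were not called and white values given without a test. At left Ephb6 lies lowest (-7.97) and Epha7 (4.91) has the widest bar, and at right Epha7 lies highest (6.04).

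Of the 12 Eph and ephrin genes outside the list, 8 passed the filter in each of these comparisons. Of the 7 that did so in both groups, 0 rose and 1 fell against WT HSPCs, beside 28.7 and 29.5% of all such genes. Against Mir139KO HSPCs 1 rose and 1 fell, beside 32.5 and 33.1%. The other one, Epha6, an A receptor, had 66 counts over the cultures against 6 in WT and 1 in Mir139KO HSPCs and passed the filter only through the cultures. Its level ratio was 5.27 (95% exact Poisson interval 2.30 to 14.9) and 26.7 (4.62 to 1069), without a test. Efna5, an ephrin-A ligand, fell by 1.55 (SE 0.54, edgeR adjusted p = 0.0238) against WT and by 1.33 (SE 0.45, adjusted p = 0.0187) against Mir139KO, and each call was lost in 6 of 21 alternative settings, among them the omission of WT replicate 2 or 3 and of Mir139KO replicate 1 or 4.

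Epha1, the leading receptor of neo cultures per kb, ranged from 4.45 to 9.61 CPM in HSPCs. It stood at 19.9, 4.55 and 12.4 CPM in neo and 24.6, 6.38 and 24.5 CPM in puro cultures. Neo replicate 2 and puro replicate 5 stayed within the HSPC range and the other 4 cultures exceeded it. The log2 difference was 1.22 (SE 0.50, edgeR adjusted p = 0.0504) against WT, called in 7 of 21 alternative settings, and 1.19 (SE 0.47, adjusted p = 0.0366) against Mir139KO, called in 9 of 21. The Mir139KO call was lost without any single Mir139KO library and without neo replicate 1, puro replicate 4 or puro replicate 6, with adjusted p up to 0.203 over all settings. Exons of Epha1 share 236 bases with Zyx on the opposite strand. Epha5 (log2 difference -0.51 against WT), Epha10 (0.74), Ephb1 (-1.08), Efna2 (0.43) and Efnb3 (0.20) were not called in either comparison. Epha3, Epha8, Ephb3 and Efna3 did not pass the filter, and Efna3 had 0 counts in all HSPC libraries.

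Within HSPCs, several listed genes differed by Gm26917 share, as did a large part of all genes tested. Of the 10, 5 were higher in the 4 libraries over 25% than in the 4 under 25% without overlap, beside 30.1% of 15056 genes, and 1 was lower, beside 34.9%. Ephb6 stood at 2.58 to 5.04 CPM under 25% and at 7.45 to 10.7 CPM over it. Epha2 stood at 5.63 to 6.69 against 7.75 to 11.02 CPM, and Efnb1 at 6.09 to 10.5 against 12.0 to 13.2 CPM. Ephb2 (5.37 to 6.21 against 6.26 to 9.34 CPM) and Ephb4 (0.399 to 0.855 against 0.888 to 1.62 CPM) were separated by small gaps. Efnb2 was the one in the other direction, at 0.541 to 1.18 CPM under and 0.132 to 0.507 CPM over 25%. The pattern depended on the scaling, since with total counts only, 0 of the 10 were higher without overlap and 2, Epha7 and Efnb2, were lower, while over all genes the shares were 9.25% and 54%. What the share reflects was not tested.

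**Figure D4:**
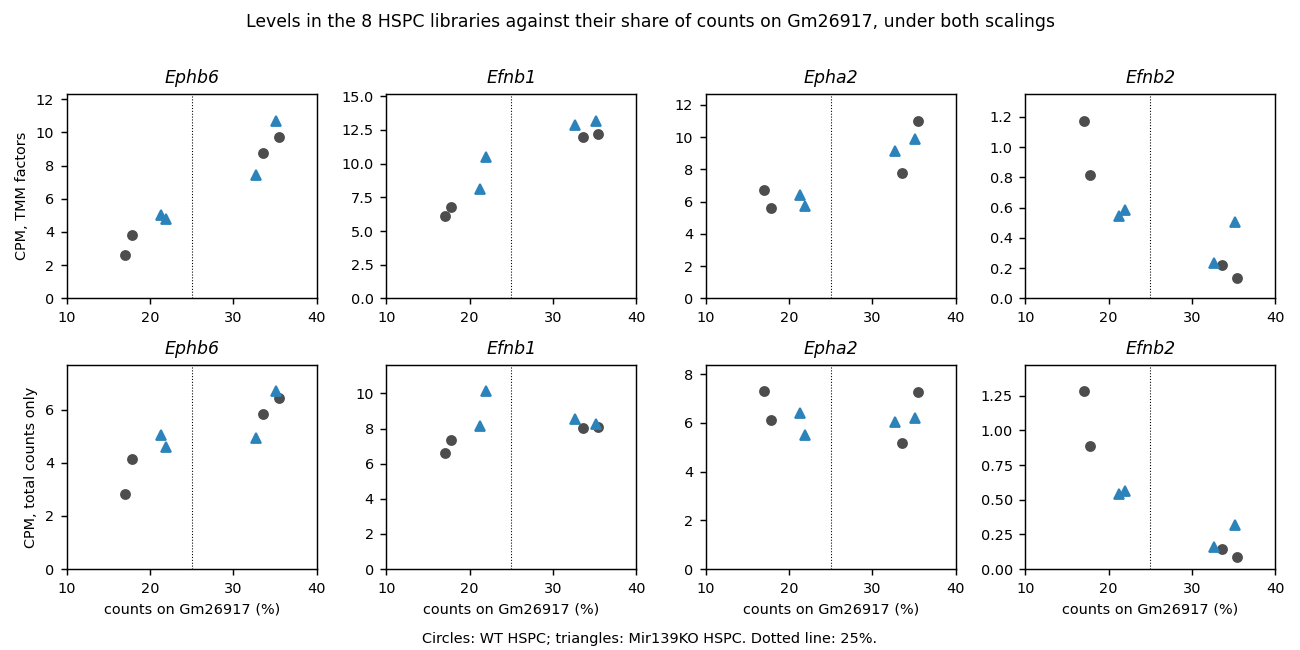
Level of Ephb6, Efnb1, Epha2 and Efnb2 in the 8 HSPC libraries, in CPM with TMM factors (top) or total counts only (bottom), against the percentage of counts taken by Gm26917, with circles for WT, triangles for Mir139KO and a dotted line at 25%. In the top panels, libraries over 25% lie above those under 25% for Ephb6 (7.45 to 10.7 against 2.58 to 5.04 CPM) in both genotypes.

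Between the HSPC genotypes, no member of the family was called. In edgeR, 0 of 15056 genes (0%) were called between Mir139KO and WT HSPCs, 86 had an unadjusted p under 0.05, and DESeq2 also called 0. Of the listed genes, 9 were tested with adjusted p = 1 each and Efna1 did not pass the filter. Efna4 had the largest difference, 0.81 on the log2 scale (SE 0.38, unadjusted p = 0.0621), with overlapping groups. The other values lay between -0.35 for Efnb2 (SE 0.62) and 0.26 for Efnb1 (SE 0.33), with Epha7 at -0.33 (SE 0.44). Neither the other family genes tested nor the 42 tested genes of the signaling list below had an unadjusted p under 0.05. Epha5, the family member with a miR-139-5p match and enough counts, differed by -0.07 (SE 0.34). Over all genes, the median log2 difference was -0.098 with and -0.022 without a miR-139-5p match, and -0.051 with and -0.029 without a match for miR-139-3p.

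Between puro and neo cultures edgeR called 144 of 16503 genes (0.873%), a count that single libraries decided. It was 41 without neo replicate 1, 0 without neo replicate 2 or 3, 5 without puro replicate 4, 3 without puro replicate 6 and 990 without puro replicate 5. Besides Epha7, which is the basis of the list, Epha2, Ephb2 and Efnb1 were separated without overlap between the vectors, as were 19.7% of all genes tested (11.9% higher and 7.88% lower in puro). Epha2 differed by -2.84 (SE 0.62) and Ephb2, at 8 to 9 counts in neo and 32 to 81 in puro cultures, by 2.84 (SE 0.54). Efnb1 differed by -0.28 (SE 0.35), with neo values of 1.502 to 1.86 CPM just above puro values of 1.26 to 1.44 CPM. The values of Ephb4 (0.09, SE 0.64), Efnb2 (0.15, SE 0.52), Efna4 (0.41, SE 1.28) and Efna1 (1.09, SE 0.88) overlapped between the vectors, and Epha4 and Ephb6 did not pass the filter. Outside the list 8 family genes passed the filter, 7 of them in both groups, and edgeR called 0 of these 7. Ephb1, with 12 to 29 counts in neo and 2 to 3 in puro cultures, passed only through neo and is given without a p (-2.89, SE 0.56). Of the 7, Epha5 (-1.41, SE 0.47, edgeR adjusted p = 0.249) and Efna5 (-1.29, SE 0.46, adjusted p = 0.287) had an unadjusted p under 0.05 and no overlap.

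Components that act below the receptors were called at rates near those of all genes. Of 48 genes for adaptors and kinases, regulators of small GTPases, partners of ephrin-B tails and proteases, 46 were tested against WT HSPCs. Of the 45 that reached 10 counts in both groups, 15 rose and 16 fell, beside 28.7 and 29.5% of such genes. The other one, Yes1, a Src-family kinase, passed the filter only through the cultures (0 to 9 counts in WT HSPCs against 99 to 720) and is given without a p, at a mean of 0.108 CPM in WT HSPCs and 7.30 CPM in cultures. The largest rises besides it were Grip2, a scaffold of ephrin-B tails (from a mean of 0.274 to 4.94 CPM, log2 difference 4.15, SE 0.83, edgeR adjusted p = 0.00111), and Rock2, a kinase that acts on the cytoskeleton (17.8 to 193 CPM, 3.42, SE 0.42, 5.03e-05). The largest falls were Ptpro, a phosphatase of Eph receptors (28.8 to 0.515 CPM, -5.82, SE 0.61, 1.63e-05), Rgs3, a partner of ephrin-B tails that acts on G proteins (45.0 to 1.07 CPM, -5.41, SE 0.52, 9.35e-06), and Src itself (13.1 to 1.14 CPM, -3.54, SE 0.40, 2.89e-05).

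Against Mir139KO HSPCs, 17 of the 44 signaling genes that reached 10 counts in both groups rose and 16 fell, beside 32.5 and 33.1%. Vav3 (3.44), Rock1 (3.29) and Grip1 (3.29) were among the rises besides those named, and Mmp2 (-2.41), Limk1 (-1.99) and Sh2d3c (-1.96) among the falls. Between vectors, edgeR called 2 higher and 1 lower of the 44 that reached 10 counts in both groups, beside 0.455 and 0.228% of all such genes. Yes1 was lower in puro (12.1 to 2.47 CPM, -2.31, SE 0.29, adjusted p = 0.0276), whereas Limk1, the kinase that phosphorylates cofilin (8.48 to 24.9 CPM, 1.55, SE 0.23, 0.0406), and Sipa1l1, a GTPase-activating protein (166 to 326 CPM, 0.97, SE 0.15, 0.0493), were higher. Like the count over all genes, these calls depended on single libraries. Without any one of the 3 neo cultures, puro replicate 4 or puro replicate 6, 0 signaling genes were called, and 7 were called without puro replicate 5.

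**Figure D5:**
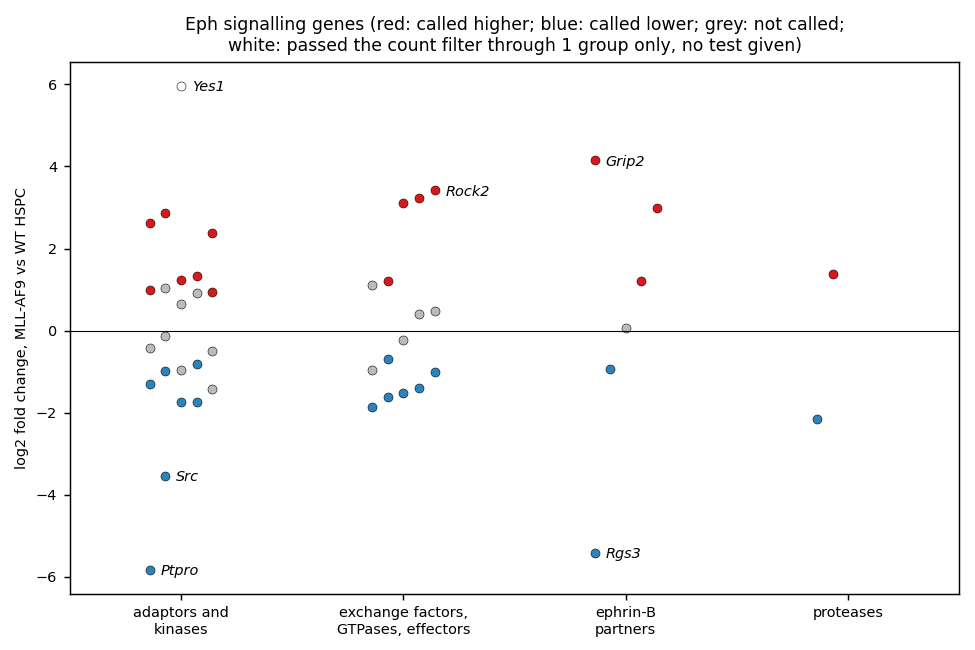
Log2 fold changes of the Eph signaling genes in MLL-AF9 cultures against WT HSPCs, 1 point per tested gene, placed by role, with red for called higher, blue for called lower, grey for not called and white for Yes1, which has no test. Among called genes Grip2 (4.15) lies highest and Ptpro (-5.82) and Rgs3 (-5.41) lowest.

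Genes with a profile like that of Epha7 were ranked over all 14 samples by the root mean square difference of log2 CPM after centering each gene on its own mean, among 17994 genes. The nearest were Gm39383 (0.73), Zc3h12c (0.73), Foxl2 (0.81), Foxl2os (0.81) and Scn3a (0.82). The first 4 lie on chromosome 9 and Scn3a on chromosome 2. Their mean log2 CPM in puro exceeded that in neo cultures by 5.98, 4.23, 4.85, 4.64 and 4.28, against 6.08 for Epha7. A large excess in puro followed from the ranking, since Epha7 was selected on that difference. In neo cultures Gm39383, Foxl2, Foxl2os and Scn3a stood at -3.92, -3.71, -3.39 and -3.28. These values are near that of 0 counts (-4.38), so the differences of these genes depend on the prior count. Of the 5, only Zc3h12c was above 2 log2 CPM in HSPCs (2.39 in WT and 2.11 in Mir139KO).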

How the data were processed

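The deposited values are raw counts per gene, which the authors made by mapping reads to GRCm38 with STAR 2.5.3e and counting with featureCounts 1.6.0 on GENCODE M15, after quality control with FastQC 0.11.8. The strand setting is not given in the sources used here. Left out were 10 columns of another series. Groups, vectors and replicate numbers came from the sample labels. Counts were analysed in R 4.3.3 with edgeR 4.0.16 and limma 3.58.1, with TMM factors, robust quasi-likelihood fits per pair of groups, at least 10 counts in as many samples as the smaller group, and Benjamini-Hochberg adjusted p under 0.05 over all genes tested. The SE was taken as log2 fold change over √F, and log2 CPM used a prior count of 2. The steps were tested on simulated data. Locations are from GENCODE M21 (52403 of 52550 genes matched by identifier) and exon lengths from its union of exons. Named genes were the 10 listed genes, all other Eph and ephrin genes, the 3 largest called rises and falls of a 48-gene signaling list and up to 3 more calls each way per further comparison, and the 5 profiles most like Epha7. The members and lists were chosen with earlier results of these data known. Alternatives were RLE factors, total counts, DESeq2 1.42.0, no filter, a replicate block, each vector alone, Gm26917 share classes, the share class as a covariate, puro replicates 4 and 6 summed and each library left out. Genes with 10 counts in no library of 1 group passed the filter through the other alone and get no p in the text, a rule added, like the GC correction, after seeing the data. The GC correction (natural spline, 5 degrees of freedom, for the 99.83% of genes with a GC value) entered as an offset. Total counts were 35016668 to 45877994 per library, and intervals cover counting error only. Reads carry no molecular identifiers.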

Additional observations from a re-analysis of the deposited data

Results flagged for a closer look

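In 43 sets of 4 or 6 libraries (1 Eph or ephrin gene in 1 group, with at least 10 counts in 3 or more libraries), 2 had a library set apart from the rest of its group by Dixon's ratio of gap to range, where chance alone sets apart about 5% of groups. Both were in Mir139KO HSPC replicate 4. Ephb2 stood at 8.60 CPM there, with the nearest library at 6.26 CPM and a ratio of 0.961, and Ephb4 at 1.38 CPM, with the nearest at 0.888 CPM and a ratio of 0.859. This library is one of those over 25% Gm26917. Without it, the log2 difference of Ephb2 between Mir139KO and WT HSPCs was -0.12 in place of 0.01.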

How the results depend on the processing

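The number of Eph and ephrin genes called against WT HSPCs, without Epha7, was 9, of which 3 passed the filter through 1 group only, and it was 5 with HSPC libraries under 25% Gm26917, where calls over all genes also went from 10630 of 17077 to 7665 of 18331. It was 8 to 10 with each library left out, and 8 to 9 against Mir139KO HSPCs. Signaling genes called numbered 23 to 34 and 31 to 36 under the same omissions. Calls over all genes then numbered 9361 to 10722 and 10868 to 11556. The family counts include genes that passed the filter through 1 group only, such as Ephb6. Between vectors, DESeq2 called 1 family gene (Ephb1, which passed through neo only, against 0 in edgeR) and 9 signaling genes (3 in edgeR), among 1326 genes in all against 144. The GC correction left 1 signaling gene, summing puro replicates 4 and 6 left 0, and omission of single libraries gave 0 to 7. Over all genes the same settings gave 179, 5 and 0 to 990 calls. The cause of these shifts was not tested.

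Signs of listed genes changed only where a difference was not called or was given without a test. Epha7 against WT HSPCs was 4.91 with both vectors and -0.12 with neo cultures alone. For Efna4 the value against Mir139KO was 0.09 with total counts. Against WT it was 0 with DESeq2, -0.28 with libraries over 25%, -0.07 with neo cultures alone, -0.07 with replicates 4 and 6 summed and -0.26 to 0.34 without single libraries. Between the HSPC genotypes, Epha2 was 0.01 with DESeq2 or RLE factors and -0.15 to 0.22 without single libraries, Ephb2 -0.03 with the GC correction, -0.04 with total counts and -0.12 to 0.23 without single libraries, Ephb4 0.11 with the share class as covariate and -0.34 to 0.27 without single libraries. Under the same omissions Ephb6 was -0.13 to 0.47, Efnb2 -0.66 to 0.21 and Epha7 -0.62 to 0.03. Between vectors, Efna4 reached -0.16, Efnb2 -0.1 and Ephb4 -0.34 without single libraries.

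A replicate block on the numbers in the labels gave 8929 calls against WT (10630 without it), 10972 against Mir139KO (11741), 214 between vectors (144) and 0 between genotypes. Same-numbered samples did not deviate together throughout, with correlations from -0.052 to 0.094, 0.021 to 0.188, -0.313 to 0.441 and -0.566 to 0.626 in that order, and 2 of 8, 5 of 8, 3 of 6 and 2 of 8 samples correlated best with their own number, so the numbers were not taken as pairs. With the block, Efna4 against WT was -0.4, Epha2 between genotypes 0.01, Ephb4 between genotypes 0.1, and Epha7, with 1 puro culture left in the fit, 0.92 against WT and 1.24 against Mir139KO HSPCs. Levels under 0.127 CPM, such as Ephb6 in cultures or Efna3 anywhere, are at the limit of depth.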

Other observations

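Several transcripts of low or moderate level shared an order among the cultures that did not follow the vector. Epha1, Efna1 and Efna4 were highest in neo replicate 1, puro replicate 4 and puro replicate 6 and lower in neo replicates 2 and 3 and puro replicate 5. For Efna4 the first 3 cultures held 59, 40 and 54 counts and the latter 3, 12 and 2. Efna1 held 33, 60 and 66 counts against 12, 19 and 6. Efna2, an ephrin-A gene on chromosome 10, had 56, 24 and 25 counts against 8, 4 and 10. Efnb2, called higher in cultures above, had the same order, with 149, 167 and 170 counts against 102, 117 and 57. Not every ephrin gene had it, since Efnb3 held 47, 52 and 55 counts against 39, 105 and 85. Efna1 and Efna4 are neighbors on chromosome 3, while Efna3, which lies between them, had at most 2 counts in every library. The same 3 cultures had the TMM factors 1.365, 1.405 and 1.374, against 1.216, 1.291 and 1.152 in the others. The order was noticed after the values were seen and was not tested.

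The surroundings of Epha7 offered little to compare. Within 1 Mb on each side the table lists 16 other genes, all annotated as pseudogenes or noncoding RNAs. Of these 1, the pseudogene Gm11914, with at most 60 counts in a library, could be tested between vectors (log2 difference -0.95, edgeR adjusted p = 0.659). Epha8, on chromosome 4 like Epha7, Epha2 and Ephb2, had 26 counts in puro replicate 5 and at most 3 in any other library.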
